A study of Mus musculus with 12 samples.

Results

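Small nucleolar RNAs (snoRNAs), small Cajal body RNAs (scaRNAs) and spliceosomal small nuclear RNAs (snRNAs) work in the nucleus, and they are described here in RNA recovered with the cytoplasmic m6A readers YTHDF1, YTHDF2 and YTHDF3. The table deposited for YTHDF1 lists 16716 genes, and the lowest mean signal among them was 10.007. That signal was pooled over libraries that include the RIPs, so expression, RIP signal included, limited which annotated genes could be chosen. Among the listed genes, every one with the biotype snoRNA, scaRNA or snRNA was taken. This gave 82 genes, namely 61 snoRNA, 6 scaRNA and 15 snRNA genes, of 55573 genes counted. By symbol, 15 were C/D snoRNAs, 13 were H/ACA snoRNAs and 7 were scaRNAs, of which Scarna10 has the snoRNA biotype. The symbols of 32 further snoRNAs did not give their class.

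The libraries come from sequencing of RNA after immunoprecipitation (RIP-seq) from wild-type C57BL/6 mouse neurons, taken from the hippocampus of newborn pups and kept in culture for 14 days. The pups of a litter were pooled, and a drug against dividing cells (Ara-C) was given to all cultures to hold back glia. The 4 groups were Input, which was RNA from a fraction of the lysate, and RNA pulled down with antibodies against endogenous YTHDF1, YTHDF2 or YTHDF3, with 3 libraries each. Per the methods of the study, the lysate of a replicate was divided among the 3 pulldowns and its Input was shared, so same-numbered libraries are taken to come from 1 lysate. Control-antibody pulldowns were not analysed here, and all enrichment is relative to Input, and all 3 RIP groups share the same Input libraries. The sources do not say whether the replicates of a group came from separate litters, so p-values measure the spread between these libraries. In Input the summed level of 6 neuron markers was 1860 to 2650 normalized CPM, that of 5 astrocyte markers 289 to 2640, and those of the oligodendrocyte, microglia and endothelial lists were at most 40.6, 5.68 and 2.12.

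C/D snoRNAs guide 2′-O-methylation and H/ACA snoRNAs guide pseudouridylation of ribosomal RNA, and a few, such as U3, U8 and U17, are needed for the cleavage of its precursor instead. The scaRNAs guide the same modifications on spliceosomal snRNAs. U1 and U2 belong to the major spliceosome, and U11 and U12 to the minor spliceosome, which removes a rare class of introns. In mammals most snoRNAs and scaRNAs are cut from introns of host genes, so a read on the annotated gene can come from the mature small RNA, from a host transcript or, for repeated genes, from another copy.

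The sequences on which the results turn are shown first, with motifs typical of C/D, H/ACA and Sm-type RNAs. They also let a reader see which members are near copies of each other. Places refer to GRCm38 and sequences are those of GENCODE M21, written as DNA, 5′ to 3′ in the sense of the RNA. Capitals mark each C box TGATGA and D box CTGA in C/D-type RNAs, the ACA in the last 8 bases of H/ACA-type RNAs, and the Sm-like motif ATTTNTNG in snRNAs, and Rnu12 has none because these letters are not in it. Motifs were marked by the assumed type only. The D box letters alone do not give the type, since CTGA was also in 8 of 13 H/ACA members and 11 of 15 snRNAs. Gm23508 was marked as C/D-type, although it has no C box and holds an unmarked Sm-like match. The first group holds 6 members enriched in the YTHDF1 RIP.
Snord64: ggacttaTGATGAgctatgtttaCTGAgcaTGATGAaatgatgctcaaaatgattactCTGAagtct
Snord107: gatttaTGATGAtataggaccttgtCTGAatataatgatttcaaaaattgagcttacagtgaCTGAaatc
Gm25129: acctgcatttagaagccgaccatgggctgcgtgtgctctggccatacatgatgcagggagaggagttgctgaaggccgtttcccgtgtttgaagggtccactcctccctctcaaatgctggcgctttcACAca
Gm25187: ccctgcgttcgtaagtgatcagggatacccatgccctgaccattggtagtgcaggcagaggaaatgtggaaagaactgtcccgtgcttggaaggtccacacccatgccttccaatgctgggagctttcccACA
Gm24895: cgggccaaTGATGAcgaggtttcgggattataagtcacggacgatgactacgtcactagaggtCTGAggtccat
Gm24598: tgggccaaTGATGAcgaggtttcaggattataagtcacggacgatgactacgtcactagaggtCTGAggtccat

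Both members depleted in the YTHDF1 RIP lie on the same strand as Gm24895 in Rian, an imprinted long noncoding RNA that carries many C/D snoRNAs. On chromosome 12, Gm23508 lies at 109653033 to 109653104 over an exon and Gm24564 at 109631074 to 109631148 in an intron.
Gm23508: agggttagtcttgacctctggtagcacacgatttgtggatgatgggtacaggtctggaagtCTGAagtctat
Gm24564: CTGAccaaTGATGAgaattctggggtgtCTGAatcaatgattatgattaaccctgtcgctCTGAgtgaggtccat

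The next group holds Snord118 and Snord15a, which had the lowest fold changes in the YTHDF3 RIP, and Gm23212, a member enriched there. Snord15a lies on chromosome 7 at 99482785 to 99482932 on the minus strand and Gm23212 on chromosome 1 at 161036682 to 161036741 on the plus strand.
Snord118: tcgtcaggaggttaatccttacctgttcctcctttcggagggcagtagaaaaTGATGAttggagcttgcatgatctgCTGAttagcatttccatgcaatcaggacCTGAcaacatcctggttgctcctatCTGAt
Snord15a: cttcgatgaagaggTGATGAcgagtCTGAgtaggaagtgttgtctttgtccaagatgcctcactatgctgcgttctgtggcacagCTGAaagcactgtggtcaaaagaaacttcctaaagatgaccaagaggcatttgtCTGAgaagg
Gm23212: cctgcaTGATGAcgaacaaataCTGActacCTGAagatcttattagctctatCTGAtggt

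The last group shows a U1 copy and a U2 copy, whose levels in the RIPs differed, and the U12 and U11 snRNAs. The U2 copy Gm25813 lies on chromosome 8 at 52336915 to 52337105 on the minus strand, Rnu12 on chromosome 15 at 83149644 to 83149794 on the plus strand and Rnu11 on chromosome 4 at 132270080 to 132270213 on the minus strand.
Gm22042: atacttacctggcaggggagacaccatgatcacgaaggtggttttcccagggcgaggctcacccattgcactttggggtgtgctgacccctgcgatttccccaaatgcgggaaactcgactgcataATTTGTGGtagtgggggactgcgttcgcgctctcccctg
Gm25813: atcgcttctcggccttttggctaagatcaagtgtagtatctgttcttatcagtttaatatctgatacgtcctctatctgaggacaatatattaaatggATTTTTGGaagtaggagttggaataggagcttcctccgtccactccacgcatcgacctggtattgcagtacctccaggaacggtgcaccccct
Rnu12: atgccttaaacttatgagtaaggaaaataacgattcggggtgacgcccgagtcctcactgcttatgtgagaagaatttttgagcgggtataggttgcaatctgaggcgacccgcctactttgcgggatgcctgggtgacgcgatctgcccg
Rnu11: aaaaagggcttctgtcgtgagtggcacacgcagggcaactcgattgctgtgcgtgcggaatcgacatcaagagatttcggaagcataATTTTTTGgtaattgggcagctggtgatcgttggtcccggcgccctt

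Gm24895 and Gm24598 were 98.6% identical over 73 nt, so reads of one can count for the other, and no alignment was found between Gm25129 and Gm25187 or between Snord64 and Snord107. Searched on the RNA strand only, both the C box and the D box were found in 12 of the 15 C/D members, in 10 of the 32 members whose symbol gave no class, and in 24.0% of the 1507 counted genes annotated as snoRNAs. An ACA in the last 8 bases was found in 12 of the 13 H/ACA members, in 18 of the 32 others and in 46.8% of all annotated snoRNAs. The Sm-like motif was found in 10 of the 15 snRNAs, Rnu12 not among them, and in 9.62% of 1383 annotated snRNAs.

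The members were a small and unusual part of the small nuclear RNA in these libraries. The count table held 2943 genes of these biotypes, 1639 of them with a count in any library, and the members took between 5.52% and 23.6% of the counts of these genes in a library. The repeated genes of U1, U2, U3 and U5 that took most counts were counted but were not among the listed genes. Of the members, 28 had at least 1 near copy of 90% identity, up to 34 for a U1 copy. Lengths ran from 60 to 414 nt with a median of 134.5 nt. On the same strand, 38 members overlapped an exon of another annotated gene, 31 lay in an intron and 13 lay in no other gene. Since every overlapped gene received the read, the 38 could take counts from exons of their hosts.

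Total counts were 6020072 to 38909592 per library, and the median member had a mean of 18.8 counts, with 64 of the 82 under 50. Of the members, 81 passed the minimum mean of 10 normalized counts, and Gm24455, a snoRNA, did not. A mean of 10 was reached by 31 members in all 4 groups separately. Gm25187 passed through the YTHDF1 RIP alone, so its difference followed in part from the filter. The mean was taken over all 12 libraries. Snord107, Gm25129, Gm26003 and Snora31 were low in Input, so the RIP where each was high could also have carried it past the minimum. Levels are given as normalized CPM (CPM scaled between libraries by TMM, the trimmed mean of M-values), and differences as log2 fold changes from edgeR's quasi-likelihood test with its standard error (SE) and Benjamini-Hochberg adjusted p over 17126 genes. A gene was called against Input when its log2 fold change passed 0.32 in size, and between RIPs when it passed 1, with an adjusted p of 0.05 or less in either case. Called genes are described as enriched or depleted. Same-numbered libraries are taken to share a lysate, so each comparison was also fitted with the replicate number as a block. This was done on its 2 groups alone, called the paired fit here, and on all 12 libraries. Values of these fits are given where they change a call, the sign of a median or a count by more than 1.5 times. The balance of calls over all genes moved with the scaling. Of the genes called in YTHDF1, YTHDF2 and YTHDF3 against Input, 51.4%, 45.3% and 41.7% were enriched, but 33.2%, 48.8% and 61.4% with library size alone and 40%, 36.6% and 38.9% with TMM over protein-coding genes, which shifted the median of all genes by -0.41, 0.07 and 0.32 and by -0.25, -0.11 and -0.04 on the log2 scale. Of the genes called for YTHDF1 against YTHDF2, YTHDF1 against YTHDF3 and YTHDF2 against YTHDF3, 65.1%, 74.9% and 77.3% were higher in the first, but 26.1%, 14.9% and 27% with library size alone (shifts of -0.48, -0.73 and -0.25) and 51.3%, 50.4% and 53.9% with TMM over protein-coding genes (shifts of -0.14, -0.2 and -0.07). The median of the members kept its sign under both scalings, at 0.29, 0.28 and -0.69 against Input with library size alone and at 0.37, 0.12 and -1.05 with TMM over protein-coding genes.

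Per length, Gm24895 was the highest member in Input at 359 CPM per kb, followed by Rnu12 at 135, Snord22 at 124 and Gm22042 at 101, and the median member stood at 9.53. In the YTHDF1 RIP Snord64 was the highest at 2130 CPM per kb, and Gm24895 followed at 561. Gm24895 was again the highest in the YTHDF2 RIP at 378 and in the YTHDF3 RIP at 667 CPM per kb.

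All members together held 0.0255% to 0.0313% of the counts in Input (mean 0.0277% ± 0.00316, SD, n = 3). In the YTHDF1 RIP they held between 0.018% and 0.0924% (mean 0.0465% ± 0.0402), a range wide enough to enclose Input. In the YTHDF2 RIP the mean was 0.0247% ± 0.00453 and overlapped Input. In the YTHDF3 RIP it was 0.0186% ± 0.00296, and every library lay below every Input library (two-sided exact permutation test, p = 0.1, the smallest that 3 against 3 libraries allow). A single gene weighed heavily on the YTHDF1 value, since Snord64 held 9.92%, 47.5% and 49.3% of the members' counts in the YTHDF1 libraries and at most 3.67% in every other library. Input levels are those of bulk RNA, in which fewer cells of a type and less RNA per cell cannot be told apart. Outside the 38 genes that overlap an exon, the mean share was 0.0159% in Input, 0.0208% in YTHDF1, 0.0109% in YTHDF2 and 0.00585% in YTHDF3.

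**Figure D1:**
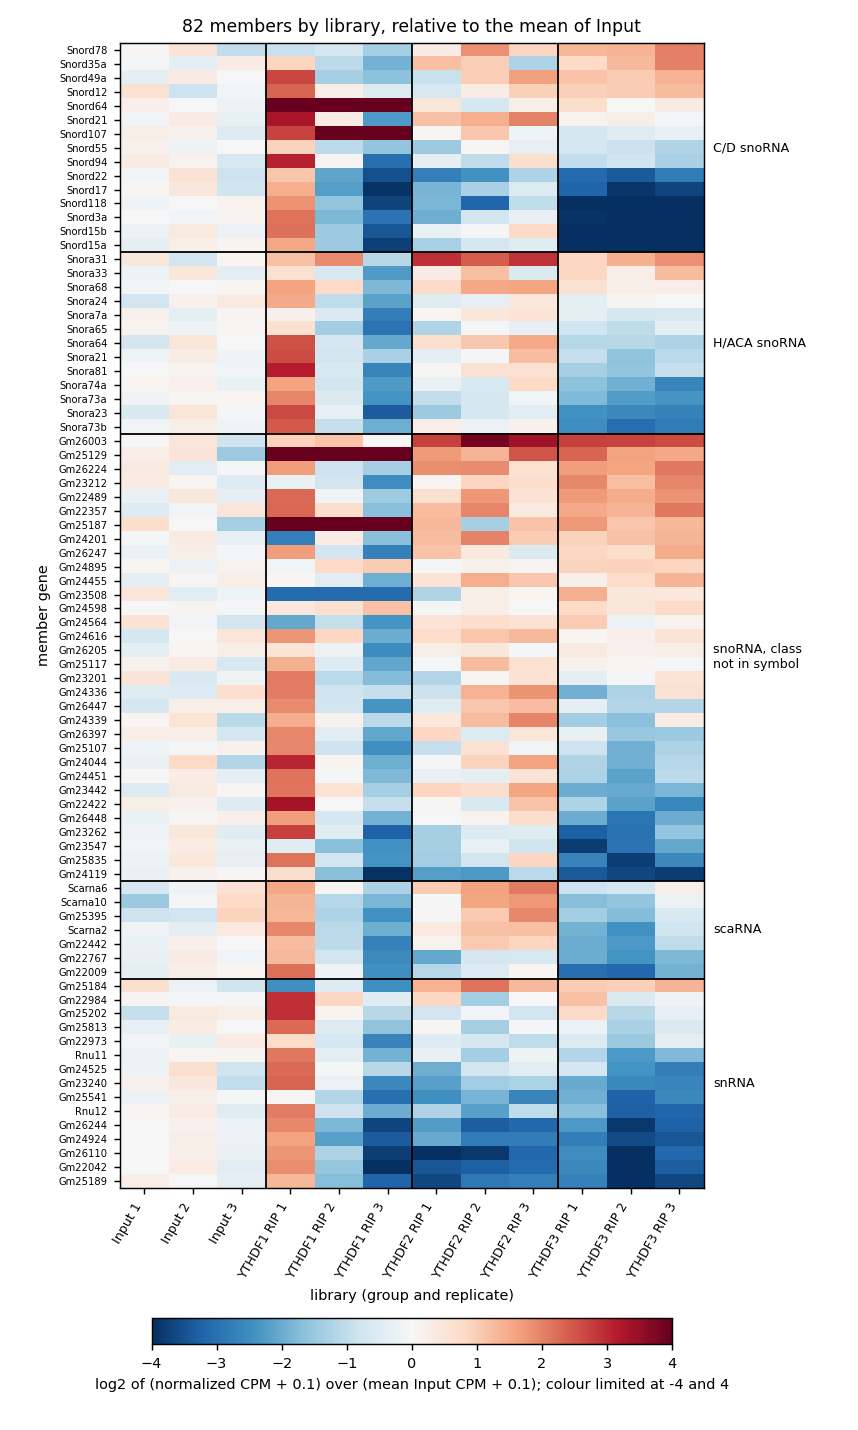
Each row is a member and each column a library, and colour is the log2 ratio of normalized CPM to the mean of Input after adding 0.1 CPM, from blue (lower) to red (higher) and limited at -4 and 4. Members are grouped by class and sorted by the YTHDF3 RIP, where the lower rows of the C/D and snRNA blocks are dark blue in all 3 libraries. In the YTHDF1 RIP, replicate 1 is mostly red and replicate 3 mostly blue.

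The YTHDF1 libraries stood apart from each other for these genes, which bears on every YTHDF1 value given here. In replicate 1, 72 of 82 members were above every Input library, at a median of 3.46 times the mean Input level. In replicate 3, 73 of 82 were below every Input library, at a median of 0.237 times. In replicate 2, 46 were below every Input library and the median was 0.629 times. Over all genes tested, 40.5% were above every Input library in replicate 1 and 40.7% were below in replicate 3. Their medians were 0.964 and 0.977 times, which the scaling brings close together, so the members were displaced relative to the median gene only. The signal recognition particle RNA Rn7s1 was also lowest in replicate 3, at 2750, 2940 and 359 CPM in replicates 1, 2 and 3. The nuclear long noncoding RNA Malat1 was too, at 1510, 1400 and 344 CPM. Rian was not, at 489, 425 and 458 CPM. Replicate 1 was the highest and replicate 3 the lowest of the 3 for 69 of 82 members (84.1%), against 10.7% of all genes tested. The 13 others included Snord64, Snord107, Gm25129, Gm25187, Gm24598, Gm24895, Gm23508 and Gm24564, which are the 8 members called in the YTHDF1 RIP. A gene with a wide spread between replicates is less readily called, so this overlap followed in part from the test. The annotated genes of these biotypes that were not listed showed the same spread, with 0.058% to 1.42% of all counts in the YTHDF1 libraries against 0.394% to 0.52% in Input. Why replicate 1 held more was not tested.

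**Figure D2:**
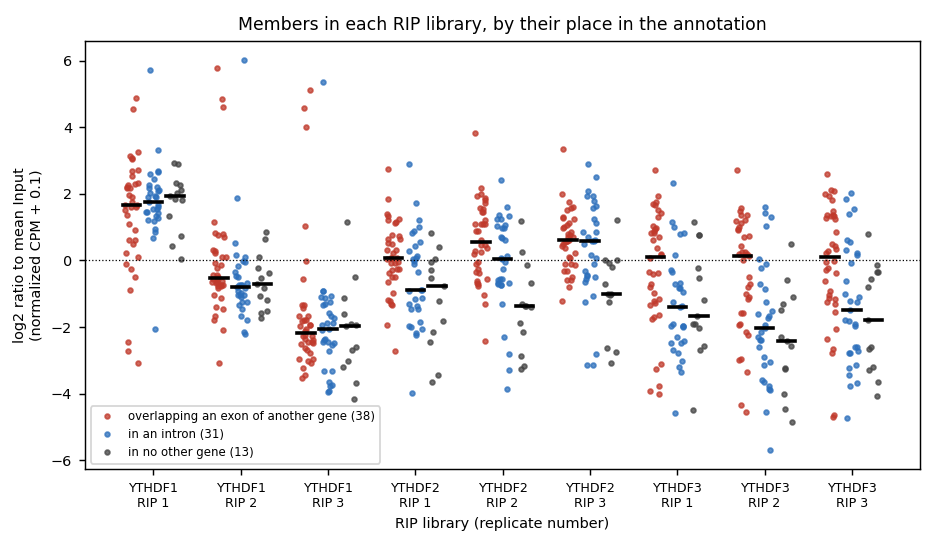
Points are members in each RIP library, coloured by their place in the annotation, and the y axis is the log2 ratio of normalized CPM to mean Input after adding 0.1 CPM, with black bars for medians. The 3 YTHDF1 libraries differ from each other at every place, whereas in the YTHDF3 RIP members in introns or in no other gene have medians below 0 in every library and members over exons have medians near 0.

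In the YTHDF1 RIP, 6 of 81 members were called enriched and 2 depleted, where 27.2% and 25.8% of all genes tested were called. Both shares of members, 7.41% and 2.47%, were below these backgrounds. The median log2 fold change of the members was 0.57, against 0.02 over all genes, and it was 0.13 with the replicate block on all 12 libraries and -0.45 in the paired fit. The paired fit called 4 enriched and 1 depleted, where 14.0% and 17.7% of all genes were called. Without replicate 1, 6 were enriched and 23 of 76 were depleted, where the background was 26.0% and 23.2%, and the median was -1.41. Without replicate 3, 13 were enriched and 1 depleted, without replicate 2, 4 were depleted, and without Input replicate 1, 1 was depleted.

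Snord64 and Snord107, brain-expressed C/D snoRNAs of the imprinted Snrpn region with no established ribosomal RNA target, were enriched in YTHDF1. They lie on chromosome 7 at 59978808 to 59978874 and 59980876 to 59980945 on the minus strand, both within an exon of Gm38393. Snord64 was at 4.03, 3.44 and 3.0 CPM in Input and at 106, 197 and 125 CPM in the YTHDF1 RIP. It was at 4.92, 2.09 and 4.13 CPM in the YTHDF2 RIP and at 5.79, 3.52 and 4.43 CPM in the YTHDF3 RIP, so the YTHDF1 libraries alone stood apart. The log2 fold change against Input was 5.34 (SE 0.36, adjusted p = 2.55e-06) for YTHDF1 and 0.09 and 0.38 for YTHDF2 and YTHDF3, neither of which was called, although the paired fit called YTHDF3 at 0.42 (edgeR adjusted p = 0.0482). Snord107 was at 0.609, 0.586 and 0.321 CPM in Input and at 3.8, 14.8 and 9.68 CPM in the YTHDF1 RIP, with a log2 fold change of 4.18 (SE 0.54, adjusted p = 8.77e-05). It was at most 1.19 CPM in every YTHDF2 or YTHDF3 library.

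Their host Gm38393 was enriched less, by 2.41 on the log2 scale (SE 0.37, adjusted p = 0.00026), and was depleted in the YTHDF2 RIP at -1.13 and in the YTHDF3 RIP at -1.16. Host levels in the YTHDF1 libraries were 774, 1940 and 1110 CPM, against 183 to 306 CPM in Input. Per length, Snord64 was at 1.14 times its host in Input and at 8.72 times in the YTHDF1 RIP, while Snord107 was at 0.158 and 0.551 times. The direct tests between RIPs also called both snoRNAs, with Snord64 higher in YTHDF1 than in YTHDF2 by 5.25 and than in YTHDF3 by 4.96 on the log2 scale, and Snord107 by 3.73 and 4.79.

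Gm25129 and Gm25187 lie on chromosome 2 on the plus strand in Snhg11, a brain-expressed snoRNA host. Gm25129, at 158379534 to 158379666 in an intron, was at 0.228, 0.293 and 0 CPM in Input and at 14.2, 17.6 and 11.2 CPM in the YTHDF1 RIP. Its log2 fold change was 6.18 (SE 0.57, adjusted p = 1.19e-05). It was also called in the YTHDF2 RIP at 2.31 and in the YTHDF3 RIP at 2.21, and was the only member called in all 3, although the YTHDF2 call was lost without YTHDF2 replicate 3 and in the paired fit, where adjusted p was 0.118. Gm25187, at 158378222 to 158378354 within an exon, was at 0.304, 0.146 and 0 CPM in Input and at 5.76, 7.06 and 5.87 CPM in the YTHDF1 RIP, a log2 fold change of 5.20 (SE 0.68, adjusted p = 9.86e-05). It passed the filter through the YTHDF1 RIP alone, so this difference followed in part from the filter. Snhg11 moved with both members, at log2 fold changes of 6.00 for YTHDF1, 1.64 for YTHDF2 and 1.81 for YTHDF3, all called, the YTHDF2 value not in the paired fit (adjusted p = 0.055). Per length the members were at 0.0949 and 0.0413 times the host level in the YTHDF1 RIP and at 0.0739 and 0.0639 times in Input.

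Gm24895 and Gm24598, the near copies shown above, were enriched in the YTHDF1 and YTHDF3 RIPs by small amounts. Gm24895, on chromosome 12 at 109646129 to 109646202 in an exon of Rian, was at 28.2, 22.5 and 29 CPM in Input, at 24.6, 45.9 and 54.1 CPM in YTHDF1, at 25.4, 30.2 and 28.4 CPM in YTHDF2 and at 49.1, 50.6 and 48.4 CPM in YTHDF3. The YTHDF1 libraries overlapped Input, and the YTHDF1 call at 0.65 (adjusted p = 0.0433) was lost in 19 of 21 alternatives, over which adjusted p ran from 0.00127 to 0.446. The YTHDF3 libraries were all higher, at 0.90 (SE 0.25, adjusted p = 0.0132, and 0.0604 without Input replicate 2). Gm24598, on chromosome X at 64496584 to 64496657 in no other gene, was enriched by 0.80 in YTHDF1 and 0.69 in YTHDF3 (adjusted p = 0.0112 and 0.0283). With libraries scaled by library size alone or by TMM over protein-coding genes, neither was called in YTHDF1, and both remained called in YTHDF3. The YTHDF3 call of Gm24598 was lost with no filter, without any single Input library and without YTHDF3 replicate 1 or 3. The paired fit did not call them in YTHDF1 either (adjusted p = 0.322 for Gm24895 and 0.205 for Gm24598), and called both in YTHDF3. Per length Gm24895 was 35.4 times Rian in Input and 31.9 times in the YTHDF3 RIP, and Rian itself was enriched there by 1.04.

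Gm23508 and Gm24564, also in Rian, went the other way in the YTHDF1 RIP. Gm23508 had no count in any of the 3 YTHDF1 libraries, and was at 1.07, 0.512 and 0.643 CPM in Input, at 0.266, 0.896 and 0.782 CPM in YTHDF2 and at 2.18, 1.04 and 1.03 CPM in YTHDF3. With a floor of 3 counts over the group, it was at least 12.4-fold lower in YTHDF1 than in Input, at least 10.9-fold lower than in YTHDF2 and at least 23.7-fold lower than in YTHDF3 (edgeR adjusted p = 0.000694, 0.00253 and 0.000848). The fitted log2 values for this gene depend on the prior count and are no estimate of size. Gm24564, in an intron of Rian, was at 1.22, 0.732 and 0.428 CPM in Input and at 0.115, 0.357 and 0.0725 CPM in YTHDF1, a log2 fold change of -2.19 (SE 0.66, adjusted p = 0.015). This call was lost without Input replicate 1 and without YTHDF1 replicate 3, and in the paired fit, with adjusted p up to 0.074. Rian was not called in the YTHDF1 RIP, at 0.50 (adjusted p = 0.0555), and was called at 0.51 with the block on all 12 libraries (adjusted p = 0.0407). Against YTHDF3, the paired fit called neither Gm23508 (adjusted p = 0.0525) nor Gm24564 (adjusted p = 0.136).

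**Figure D3:**
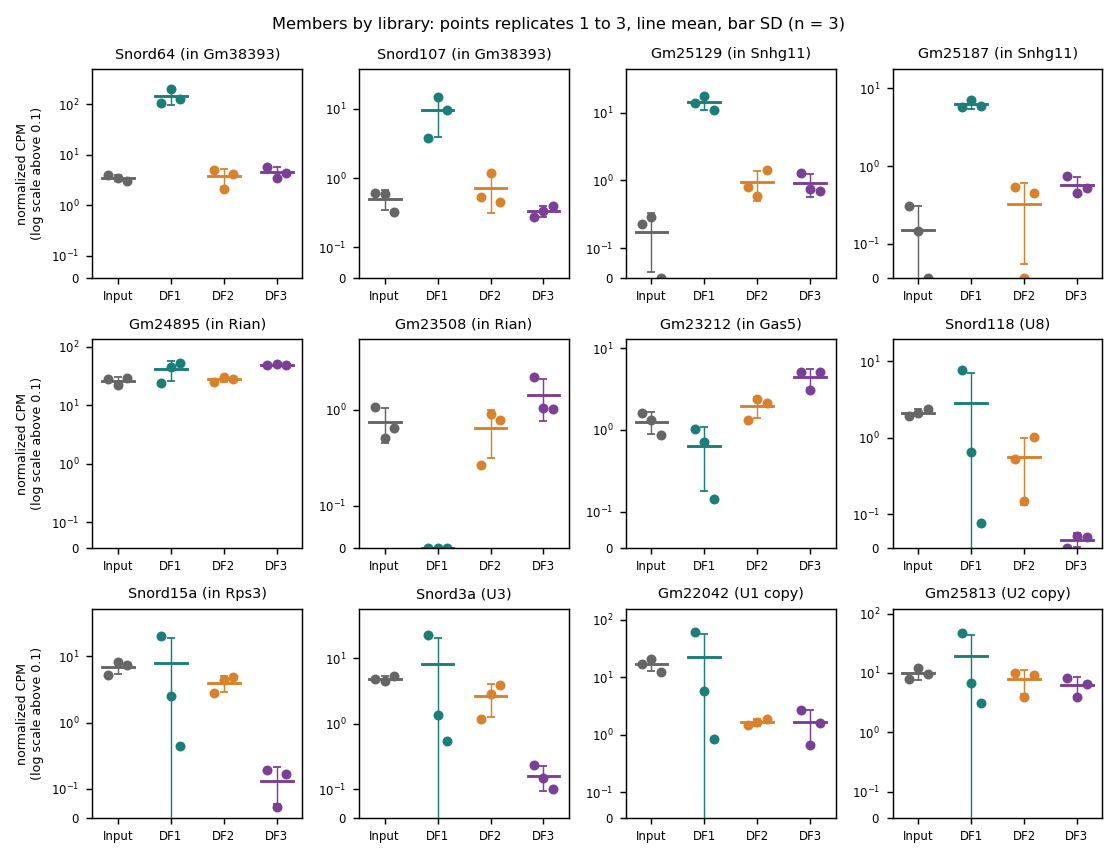
Each panel is a member, with points for the 3 libraries of each group, a line for the mean and a bar for the SD, on an axis of normalized CPM that is logarithmic above 0.1 (DF1 to DF3 stand for the YTHDF1 to YTHDF3 RIPs). Snord64 and both Snhg11 members stand out in YTHDF1, Gm23508 is at 0 there, and Snord118, Snord15a and Snord3a are far below Input in YTHDF3 while their YTHDF1 libraries straddle Input.

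In the YTHDF2 RIP, 3 of 81 members were enriched and 3 depleted (3.70% each), where 15.7% and 19.0% of all genes tested were called. The median log2 fold change was 0.23, against 0.02 over all genes. The depleted members were called with all 12 libraries in the fit, and their count was 0 without any single Input or YTHDF2 library and 8 and 7 without YTHDF1 replicates 1 and 3. The enriched count was 5, 5 and 6 without YTHDF1 replicates 1, 2 and 3. With the block on all 12 libraries, 3 were enriched and 6 depleted, where 15.4% and 18.2% of all genes were called, and the paired fit called 6 and 9, where 11.7% and 16.4% were called.

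Gm26003, Snora31 and Gm25129 were the enriched members. Gm26003, in an exon of the snoRNA host Snhg17 on chromosome 2, was at 0.0761, 0.146 and 0 CPM in Input and at 1.06, 2.39 and 1.68 CPM in YTHDF2, a log2 fold change of 4.26 (SE 0.68, adjusted p = 0.000908). Its 3 Input counts in all, against 39 in YTHDF2, gave a ratio of 20.3 with an exact 95% counting interval of 6.45 to 103. It was also enriched in YTHDF3 at 3.51 and not called in YTHDF1 at 1.02. Snhg17 was enriched by 1.67 in YTHDF2 and 1.15 in YTHDF3, less than the member. Snora31, an H/ACA snoRNA in an intron of Tpt1, was at 0.304, 0.0732 and 0.214 CPM in Input and at 2.13, 1.49 and 2.12 CPM in YTHDF2, a log2 fold change of 3.25 (SE 0.87, adjusted p = 0.0138). Without Input replicate 2 its adjusted p was 0.0576. Its host Tpt1, which encodes the translationally controlled tumour protein, was depleted in all 3 RIPs, at -3.24, -2.95 and -4.41 in YTHDF1, YTHDF2 and YTHDF3.

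The depleted members in YTHDF2 were the U1 copies Gm22042 and Gm26110 and the snRNA Gm25541. U1 snRNA recognises the 5′ splice site. Gm22042, on chromosome 4 at 51812483 to 51812647 in no other gene, was at 17, 20.6 and 12.5 CPM in Input, at 1.46, 1.64 and 1.9 CPM in YTHDF2 and at 2.72, 0.666 and 1.62 CPM in YTHDF3. The groups did not overlap, and the log2 fold changes were -3.32 (SE 1.18, adjusted p = 0.0479) and -3.32 (SE 1.1, adjusted p = 0.0321). In YTHDF1 it was at 60.6, 5.71 and 0.834 CPM and was not called. Gm26110, in an intron of Fcgr4, was at -3.87 in YTHDF2 (adjusted p = 0.0357) and Gm25541 at -2.61 (adjusted p = 0.0325).

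In the YTHDF3 RIP, 6 of 81 members were enriched (7.41%) and 22 depleted (27.2%), where 16.4% and 23.0% of all genes tested were called. The share depleted was thus near the background, while the median log2 fold change of the members was -1.01, against 0.05 over all genes. The count of depleted members was 9 without Input replicate 2 and 14, 7 and 8 without YTHDF3 replicates 1, 2 and 3. That of enriched members was 3 without Input replicate 2 or 3 and 10 without YTHDF1 replicate 3. Same-numbered Input and YTHDF3 libraries deviated together, and in the paired fit 20 members were enriched and 45 depleted, where 36.3% and 32.2% of all genes were called. All 28 calls made without the block were among them.

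Snord118, Snord15a, Snord3a and Snord15b, all C/D snoRNAs, had the lowest values among the named members in YTHDF3. Snord118, the U8 snoRNA needed for the large ribosomal subunit, lies on chromosome 11 at 69073427 to 69073561 in no other gene. It was at 1.9, 2.12 and 2.36 CPM in Input and at 0, 0.037 and 0.0331 CPM in YTHDF3, which comes to 2 counts in all 3 libraries together against 76 in Input. The ratio of Input to YTHDF3 from these sums was 87.3, with an exact 95% interval of 23.3 to 734 that covers counting error only. The log2 fold change from edgeR was -6.07 (SE 1.53, adjusted p = 0.00839). In YTHDF1 it was at 7.72, 0.642 and 0.0725 CPM and in YTHDF2 at 0.532, 0.149 and 1.01 CPM, and neither group was called. Snord3a, a copy of U3, which is needed for the small subunit, overlaps another U3 gene, Rnu3a, so that both take the same reads. It was at 4.87, 4.54 and 5.36 CPM in Input and at 0.233, 0.148 and 0.0992 CPM in YTHDF3, a log2 fold change of -4.89 (SE 1.24, adjusted p = 0.00873). Snord22, or U22, of the small subunit pathway, was at 14.6, 23.4 and 8.78 CPM in Input and at 1.71, 1.44 and 2.18 CPM in YTHDF3, a log2 fold change of -3.13 (SE 0.96, adjusted p = 0.0224).

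Snord15a and Snord15b guide methylation of ribosomal RNA and lie in Rps3, which encodes a ribosomal protein, Snord15a in an intron and Snord15b within an annotated exon. Snord15a was at 5.25, 8.2 and 7.5 CPM in Input and at 0.194, 0.037 and 0.165 CPM in YTHDF3, a log2 fold change of -5.64 (SE 1.21, adjusted p = 0.00326). Snord15b went from 10.7, 16.8 and 10.7 CPM to 0.7, 0.444 and 0.397 CPM, at -4.62 (SE 1.17, adjusted p = 0.00866). Rps3 itself was depleted in the 3 RIPs at -1.62, -1.55 and -2.25. These were also the named members that separated YTHDF2 from YTHDF3, with Snord15a higher in YTHDF2 by 4.84 and Snord15b by 4.85 on the log2 scale (adjusted p = 0.0346 and 0.0318). The calls of Snord118, Snord15a, Snord15b and Snord3a against Input in YTHDF3 held in all alternatives in which each was tested. Snord118 was too low to be tested with a minimum mean of 50.

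Of 15 C/D members, 1 was enriched and 6 were depleted in YTHDF3, with a median of -1.0, and the paired fit called 5 and 8. The shares of all genes tested were 16.4% enriched and 23.0% depleted, and 36.3% and 32.2% in the paired fit. Of 13 H/ACA members, Snora73b alone was depleted, at -3.21 (SE 1.01, adjusted p = 0.025), and its neighbour Snora73a missed the threshold at -2.34 (adjusted p = 0.0552). Both are copies of U17, an H/ACA snoRNA needed for cleavage of the ribosomal RNA precursor, and both lie in Rcc1, whose value in YTHDF3 was -0.32 and not called, while Snora73a also overlaps an exon of Snhg3. The class median was -1.24, the paired fit called 2 enriched and 9 depleted, Snora73a among the latter, and 9 of 13 had every YTHDF3 library below every Input library. Of the 7 scaRNAs, Gm22009 was depleted at -2.66 and Gm22767 at -2.25 (adjusted p = 0.035 and 0.0458), and both calls were lost with the replicate block in the fit of all 12 libraries, whereas the paired fit called 6 of the 7 depleted. The classes were not tested against each other. Scarna2, a long C/D scaRNA, was at 4.57, 3.88 and 6.64 CPM in Input and at 1.28, 0.851 and 2.84 CPM in YTHDF3, which do not overlap, and was not called at -1.58 (adjusted p = 0.16), but was in the paired fit at -1.60 (adjusted p = 8.88e-07). Scarna10, Scarna6, Gm22442 and Gm25395 had values of -1.01, -0.36, -1.73 and -1.22, none called, and the paired fit called each but Scarna6. In YTHDF2 no scaRNA was called, the class median was 0.99, and the paired fit called Scarna10 enriched at 1.37 and Scarna6 at 1.73 (adjusted p = 0.0137 and 0.0191).

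Of the 15 snRNAs, 8 were depleted in YTHDF3 and 0 enriched, with a class median of -2.54, and the paired fit called 11 depleted and 1 enriched. The shares of all genes tested were 23.0% depleted and 16.4% enriched, and 32.2% and 36.3% in the paired fit. All 5 U1 copies were depleted, from -3.13 to -4.09. The 8 depleted snRNAs fell to 3 without Input replicate 1 or 2, and to 1 without YTHDF3 replicate 2 or 3. In the latter case at most 1 U1 copy kept its call. Rnu12, the U12 snRNA, was at 21.4, 25.3 and 14.4 CPM in Input, at 8.77, 4.48 and 9.94 CPM in YTHDF2 and at 6.34, 2.04 and 2.15 CPM in YTHDF3, which are all below Input. Its log2 fold change in YTHDF3 was -2.54 (SE 0.87, adjusted p = 0.0364), and the value of -1.39 in YTHDF2 was not called, but was in the paired fit (adjusted p = 0.0485). Rnu11, the U11 snRNA, was at 7.08, 8.78 and 9 CPM in Input and at 3.62, 1.59 and 2.35 CPM in YTHDF3, and was not called at -1.72 (adjusted p = 0.105), but was in the paired fit (adjusted p = 7.11e-08). The U2 copies Gm25813, Gm22973 and Gm25202 were not called in any RIP, though the paired fit called Gm25813 depleted in YTHDF3 at -0.63 (adjusted p = 0.00563), with Gm25813 at 7.84, 12 and 9.64 CPM in Input and at 8.32, 3.92 and 6.58 CPM in YTHDF3. Gm25541 was depleted at -2.86 and Gm23240 at -3.20. Leaving out Input replicate 2 lost the calls of Rnu12, Gm22009, Gm22767, Snora73b, Snord22, Gm22042 and Gm26110, and each of these calls was also lost without at least 1 of the YTHDF3 libraries. Over the alternatives their adjusted p was at most 0.14.

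Members enriched in YTHDF3 were 60 to 133 nt long. Snord78 and Gm23212 lie on chromosome 1 on the plus strand within exons of Gas5, a noncoding snoRNA host. Snord78 was at 0.533, 0.805 and 0.214 CPM in Input and at 1.44, 1.48 and 2.38 CPM in YTHDF3, a log2 fold change of 1.71 (SE 0.51, adjusted p = 0.0195). It was not called without Input replicate 1 or 3 or without YTHDF3 replicate 3. Gm23212 was at 1.6, 1.32 and 0.857 CPM and at 5.05, 3.04 and 5.13 CPM, a log2 fold change of 1.79 (SE 0.52, adjusted p = 0.0168), and this call was lost without Input replicate 2 or 3 (adjusted p up to 0.0618). In YTHDF1 both had negative values of -1.33 and -1.16 that were not called, and the direct test placed both lower in YTHDF1 than in YTHDF3, by 3.04 and 2.95 on the log2 scale, which the paired fit did not call (adjusted p = 0.0571 and 0.0657). Gas5 was not called in any RIP, at -0.81, 0.09 and 0.24. Per length Gm23212 was at 2.81 times Gas5 in Input and at 8.35 times in YTHDF3.

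Length separated the YTHDF3 values among the members, although it played no part in their choice. Of the 19 members tested that were shorter than 100 nt, 4 were enriched and 0 depleted, with a median log2 fold change of 0.92, and the paired fit called 13 and 1. Of the 50 members from 100 nt to under 200 nt, 2 were enriched and 15 depleted, with a median of -1.42, and the paired fit called 7 and 33. Of the 12 members of 200 nt or longer, 0 were enriched and 7 depleted, with a median of -2.67, and the paired fit called 0 and 11. Over all genes tested, 16.4% were enriched and 23.0% depleted, and in the paired fit 36.3% and 32.2%. Across the 81 members, Spearman's rho between length and log2 fold change was -0.63 in YTHDF3, -0.32 in YTHDF2 and -0.04 in YTHDF1. This is a description of genes in the same libraries, which share hosts and copies. Within place, rho in YTHDF3 was -0.71 for the 37 members over exons, -0.60 for the 31 in introns and 0.00 for the 13 in no other gene. The 435 other tested genes under 300 nt of exonic length had medians of -0.88, -0.51 and -0.96 in the 3 RIPs, and 47.6% of them were depleted in YTHDF3.

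**Figure D4:**
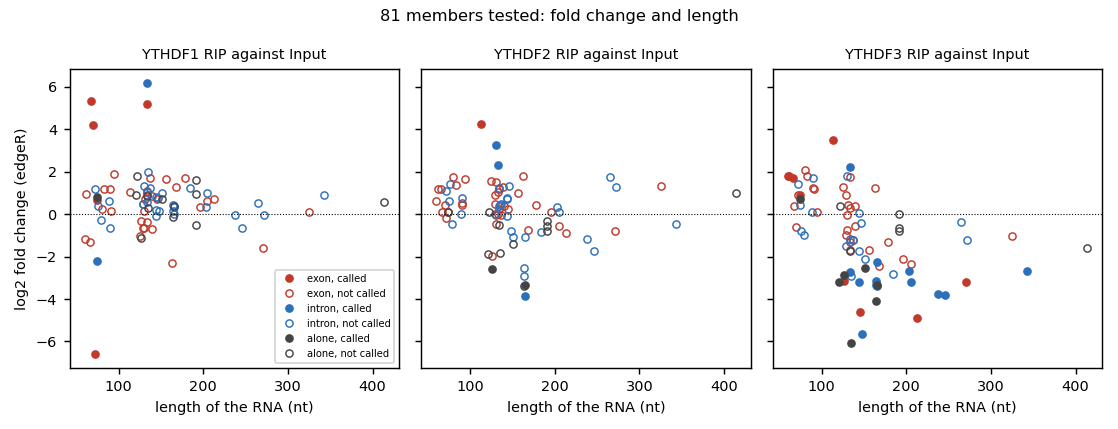
The x axis is the annotated length in nt and the y axis the edgeR log2 fold change against Input for 81 members, coloured by place, with filled points called and open points not called. In the YTHDF3 panel the filled points above 0 lie at 60 to 133 nt and those below 0 at 121 to 343 nt, while the other panels show few calls. The lowest point for YTHDF1 is Gm23508, which has no count there.

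Place also went with the YTHDF3 values. Of the members over exons, 4 of 37 were enriched and 4 depleted, with a median of 0.11. In introns 1 of 31 was enriched and 12 were depleted, with a median of -1.73, and in no other gene 1 of 13 was enriched and 6 were depleted, with a median of -1.72. The paired fit called 15 enriched and 15 depleted over exons, 4 and 21 in introns and 1 and 9 in no other gene. Of all genes tested, 16.4% were enriched and 23.0% depleted, and in the paired fit 36.3% and 32.2%. Host genes did not follow the intronic members. The 30 intronic members with a tested host had a median of -1.62 in YTHDF3, their hosts had a median of -0.10, and the signs were the same for 13 of them. Per length, the intronic members were at a median of 1.29 times their hosts' level in Input, 2.38 in YTHDF1, 1.32 in YTHDF2 and 0.553 in YTHDF3. For members over exons these values were 0.658, 1.42, 1.50 and 1.29. How many reads on a member came from its host cannot be told apart in gene counts.

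The motif GGAC, a core sequence of many m6A sites, was in 34 of the 82 members (41.5%) and in 20.4% of all annotated snoRNAs and 17.8% of all annotated snRNAs. It was in 12 of the 22 members depleted in YTHDF3, in 2 of the 6 enriched and in 19 of the 53 not called. It was in 4 of the 6 members enriched in YTHDF1. These counts hold copies, since the 5 U1 copies depleted in YTHDF3 all held GGAC, as did the near copies Gm24895 and Gm24598. In YTHDF3 the median length was 164 nt for depleted members, 74 nt for enriched members and 134 nt for those not called. A match says nothing about methylation, which was not measured in these libraries.

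Among repeated RNAs the whole families could be followed with their unlisted copies, with every alignment of a read counted. Over 77 annotated copies, U1 took 0.122% to 0.196% of counts in Input, 0.0142% to 0.0162% in YTHDF2 and 0.0108% to 0.0298% in YTHDF3, means 10.8 and 8.77 times lower. Over 17 copies of U2, the mean was 0.222% in Input and 0.197% in YTHDF2, which overlapped, and 0.16% in YTHDF3, where every library was below Input (1.39 times, exact p = 0.1). The ratio of U1 to U2 counts was 0.844, 0.773 and 0.598 in Input, 0.528, 0.261 and 0.247 in YTHDF1, 0.0556, 0.118 and 0.0792 in YTHDF2 and 0.164, 0.102 and 0.0821 in YTHDF3. Every RIP library was below every Input library (two-sided exact permutation test, p = 0.1 for each RIP, the smallest possible). This ratio does not depend on the scaling of libraries, and it differed less between the YTHDF1 libraries than the levels did. The ratio of U3 to U2 counts was 0.106, 0.114 and 0.155 in Input, 0.119, 0.0553 and 0.0481 in YTHDF1, 0.0286, 0.115 and 0.112 in YTHDF2 and 0.00796, 0.00779 and 0.00561 in YTHDF3, where the mean was 17.6 times lower than in Input (exact p = 0.1).

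**Figure D5:**
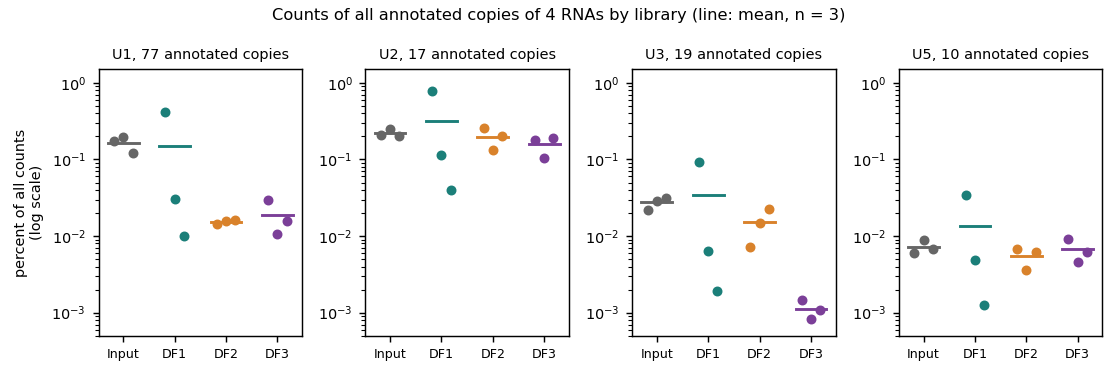
Percent of all counts taken by all annotated copies of U1, U2, U3 and U5 in each library on a logarithmic axis, with a line for the mean of 3 libraries (DF1 to DF3 stand for the YTHDF1 to YTHDF3 RIPs). U1 is lower than Input in all YTHDF2 and YTHDF3 libraries, U3 is lowest in YTHDF3, U2 is lower than Input in YTHDF3 by 1.39 times in the mean, U5 overlaps Input in every RIP, and the YTHDF1 libraries are spread widely in all 4 panels.

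The unlisted genes of these biotypes gave the nearest comparison with the members. Of 60 that were tested, 0 were enriched and 1 depleted in YTHDF1, 3 and 17 in YTHDF2, and 2 and 29 in YTHDF3, with median log2 fold changes of 0.47, -0.85 and -2.49. In the YTHDF1 RIP the median was -0.14 with the block on all 12 libraries and -1.10 in the paired fit, and in YTHDF3 the paired fit called 5 enriched and 47 depleted. Over all genes tested, 27.2% were enriched and 25.8% depleted in YTHDF1, 15.7% and 19.0% in YTHDF2, and 16.4% and 23.0% in YTHDF3. The paired fit for YTHDF3 called 36.3% and 32.2% of all genes. Of 18 unlisted U1 copies, 17 were depleted in YTHDF2 and 17 in YTHDF3, with medians of -3.42 and -3.34. All 9 unlisted U3 copies were depleted in YTHDF3 with a median of -4.96. Among them, Rnu3b1, Rnu3b2, Rnu3b3 and Rnu3b4 each appeared under more than 1 gene identifier with the same values. Rnu3a takes the same reads as Snord3a, so their shared value of -4.89 is no separate result. Of 10 U2 and 6 U5 copies, 0 were called in any RIP, and the paired fit called 10 U2 and 2 U5 copies depleted in YTHDF3. Copies share reads, so these counts are not independent genes.

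Between the RIPs, 6 members were higher in YTHDF1 than in YTHDF2 and 7 lower, where 11.4% and 6.10% of all genes tested were called. Together 13 differed, 31 without YTHDF1 replicate 1 and 8 without YTHDF2 replicate 2. The median of 0.50 was 0 with the block on all 12 libraries and -0.39 in the paired fit. Against YTHDF3, 27 were higher in YTHDF1 and 7 lower (33.3% and 8.64% of members), where the background was 10.8% and 3.63%. Of the 82 members, 13 had every YTHDF1 library above every YTHDF3 library, and without YTHDF1 replicate 1 the counts were 10 and 12 of 76. The 10 were Snord64, Snord107, Gm25129, Gm25187, Snord118, Snord15a, Snord15b, Snord3a, Snora73b and Gm23442. With the block on all 12 libraries, 15 were higher and 7 lower, where 9.42% and 3.60% of all genes were called, and the paired fit called 5 and 0, where 1.85% and 0.596% were called. The 5 were Snord64, Snord107, Gm25129, Gm25187 and the snoRNA Gm22422, named after its values were seen. Of these, Gm25187 passed the filter through the YTHDF1 RIP alone, so its difference followed in part from the filter. Those of Snord107 and Gm25129 could also have done so in part. Without YTHDF3 replicate 1, 2 or 3 the members that differed between YTHDF1 and YTHDF3 numbered 19, 15 and 16. Between YTHDF2 and YTHDF3, 3 members were higher in YTHDF2 and 0 lower, where 3.95% and 1.16% of all genes were called. The 3 were Snord15a, Snord15b and the intronic snoRNA Gm23442, named after its values were seen, and the count was 0 without any single YTHDF2 or YTHDF3 library, 1 without Input replicate 2 and 21, 6 and 13 without YTHDF1 replicates 1, 2 and 3. DESeq2 called 14 members in that comparison, and the paired fit called 8 higher and 0 lower, where 1.72% and 0.578% of all genes were called.

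Proteins that pack these RNAs and other small RNAs were followed for comparison, against the shares of all genes enriched and depleted (27.2% and 25.8% in YTHDF1, 15.7% and 19.0% in YTHDF2, 16.4% and 23.0% in YTHDF3). Of 20 snoRNP protein mRNAs, 4 were enriched and 5 depleted in YTHDF1 (20% and 25%), 2 and 5 in YTHDF2 (10% and 25%), and 1 and 6 in YTHDF3 (5% and 30%). Nop10 and Nhp2 of the H/ACA core were depleted in all 3. Of 40 snRNP protein mRNAs, 10 were enriched and 20 depleted in YTHDF1 (25% and 50%), 9 and 11 in YTHDF2 (22.5% and 27.5%), and 7 and 21 in YTHDF3 (17.5% and 52.5%), with Prpf8 and Snrnp200 enriched in all 3 and Snrpe and Snrpg depleted in all 3. Of 11 other nuclear RNAs tested, 1 was enriched and 5 depleted in YTHDF1, 4 and 3 in YTHDF2, and 2 and 4 in YTHDF3. In the paired fit for YTHDF3, the counts enriched and depleted were 5 and 10 for snoRNP mRNAs, 11 and 26 for snRNP mRNAs and 6 and 4 for the other nuclear RNAs, and in that for YTHDF1 they were 1 and 4 for snoRNP mRNAs. These fits called 36.3% and 32.2% of all genes in YTHDF3 and 14.0% and 17.7% in YTHDF1. Malat1, a nuclear long noncoding RNA, was depleted in YTHDF1 and YTHDF3 and enriched in YTHDF2, the last not in the paired fit (adjusted p = 0.0806). Of 6 cytoplasmic small RNAs, such as Bc1 of dendrites and the signal recognition particle RNAs Rn7s1 and Rn7s2, 5 were depleted in YTHDF1 and all 6 in both other RIPs, with medians of -4.19, -5.97 and -8.71.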

How the data were processed

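RIP-seq libraries of 4 groups (Input, YTHDF1 RIP, YTHDF2 RIP, YTHDF3 RIP; 3 replicates each) were made by the authors with a stranded total-RNA kit that adds unique molecular identifiers. The authors extracted identifiers with UMI-tools 1.1.1, trimmed with cutadapt 3.4, aligned to mm10 with STAR 2.7.7a, removed duplicates and deposited counts per gene from featureCounts 2.0.1 (Ensembl 97). Per the file headers, a read was counted for every gene it overlaps and for every reported alignment, so 1 molecule can give several counts. The mean signal in the table deposited for YTHDF1 (mean of scaled counts) and its biotypes gave the list of genes. Its fold changes and p-values, and the YTHDF2 and YTHDF3 tables, hold the authors' own comparisons and were not used.

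Genes whose normalized counts averaged 10 or more were tested with edgeR 4.0.16 in R 4.3.3, in 1 quasi-likelihood model of all 12 libraries with TMM scaling over the 17126 genes tested (biological coefficient of variation 0.323). The SE is the log2 fold change divided by the square root of F. The script was tested on simulated counts. Places, overlaps and sequences came from GENCODE M21, in which all 82 genes had the same coordinates. Copies were found with blastn 2.17.0. Exact tests were used for single values. Intervals cover counting error only, since counts are not independent molecules.

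Named genes are the members of known role present here (U11, U12, U3, U8, U17, Snord22, the imprinted snoRNAs and all scaRNAs), the 10 with the highest mean CPM, and those with the largest called changes in each comparison, 3 in each direction against Input and 2 between RIPs. Snord78, Gm24598, Gm23240, Gm23442 and the other U1 and U2 copies were named after their values were seen. Members and lists were chosen with earlier results of these data known. Same-numbered libraries are taken to share 1 lysate, from the methods of the study, which pairs them. Their deviations from the group means correlated for Input and the YTHDF3 RIP (r = 0.829, 0.528 and 0.804). In replicates 1, 2 and 3, r was 0.0907, -0.267 and -0.322 for Input and YTHDF1, and 0.178, -0.323 and -0.313 for Input and YTHDF2. It was 0.107, -0.34 and -0.348 for YTHDF1 and YTHDF3, and 0.17, -0.319 and -0.347 for YTHDF2 and YTHDF3. For YTHDF1 and YTHDF2 it was 0.059, 0.544 and 0.348. In the pairs with negative values, replicates 2 and 3 thus tended to deviate in opposite directions. Alternatives were DESeq2 1.42.0 as the test, other scalings and filters, the replicate block, the 2 groups alone, leaving out each library, and leaving out members over exons.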

Additional observations from a re-analysis of the deposited data

Results flagged for a closer look

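The direct tests between RIPs picked out 34 differences for the named members (edgeR, fold change of at least 2, adjusted p from 1.15e-05 to 0.0432). No group had enough libraries for an outlier test. All values are log2 differences, positive where the RIP named first was higher. Those of Gm25187 followed in part from the filter, which it passed through the YTHDF1 RIP alone. Those of Snord107, Gm25129 and Gm26003, which were low in Input, could also have done so in part.

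Between YTHDF1 and YTHDF2, the difference was 5.25 for Snord64, 4.17 for Gm25187, 3.87 for Gm25129 and 3.73 for Snord107, where every YTHDF1 library was above every YTHDF2 library. It was 4.2 for Gm26110 and 3.71 for Gm22042, both U1 copies whose groups overlapped, and both calls were lost without YTHDF1 replicate 1, without any single YTHDF2 library and with the replicate block, and that of Gm22042 also without Input replicate 2 and without YTHDF3 replicate 3. In the other direction it was -1.77 for Gm23212, -2.82 for Gm24564, -3.23 for Gm26003, -4.13 for Gm25184 and -6.39 for Gm23508, and no group of these overlapped. The call of Gm23212 was lost with the replicate block and without most of the libraries left out singly. The values of Gm23508, which had no count in the YTHDF1 RIP, depend on the prior count.

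Between YTHDF1 and YTHDF3, the difference was 6.38 for Snord118, 5.77 for Snord15a, 5.59 for Snord3a, 5.35 for Snord15b, 4.96 for Snord64, 4.79 for Snord107, 4.22 for Snora73b, 3.97 for Gm25129 and 3.43 for Gm25187, with every YTHDF1 library above every YTHDF3 library. It was 3.74 for Gm23262, 3.72 for Gm22042, 3.7 for Gm26110, 3.56 for Gm22009, 3.24 for Rnu12, 2.95 for Snora73a and 2.55 for Rnu11, whose groups overlapped and whose highest value was that of YTHDF1 replicate 1. Without that library none of these 7 was called. With the replicate block on the 2 groups alone, Snord64, Snord107, Gm25129 and Gm25187 were still called and no other of the named members was. It was -2.49 for Gm26003, -2.62 for Gm24564, -2.95 for Gm23212, -3.55 for Gm25184 and -7.51 for Gm23508.

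Between YTHDF2 and YTHDF3, the difference was 4.85 for Snord15b and 4.84 for Snord15a. Both calls were lost without Input replicate 2 and without any single YTHDF2 or YTHDF3 library.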

How the results depend on the processing

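Of 29 called values of named members against Input, 13 were called in every alternative (9 settings and 12 left-out libraries) that tested the member. Of 67 uncalled values, 32 were called in none. Without YTHDF1 replicate 1, 16 of 32 YTHDF1 values of named members went from positive to negative, and 8 of these were then called depleted (Gm22042 to -2.39, Gm26110 to -2.15, Scarna2 to -1.5, Snora73b to -1.5, Snord118 to -2.73, Snord15a to -2.31, Snord15b to -2.21 and Snord3a to -2.41), and without YTHDF1 replicate 3 these were 0.93, 0.87, 1.05, 1.53, 0.89, 0.67, 1.26 and 1.23 in the same order. Over left-out libraries, members enriched against Input numbered 5 to 13, 2 to 6 and 3 to 10 for YTHDF1, YTHDF2 and YTHDF3, and members depleted 1 to 23, 0 to 8 and 7 to 31. Members that differed numbered 8 to 31 for YTHDF1 against YTHDF2, 15 to 48 for YTHDF1 against YTHDF3 and 0 to 21 for YTHDF2 against YTHDF3. The share of counts was 0.0258% to 0.0287% in Input, 0.0235% to 0.0608%, 0.0229% to 0.0272% and 0.017% to 0.0199% in the RIPs. With no filter, 13, 8 and 11 members were enriched, 4, 11 and 35 depleted, and 34, 52 and 28 differed between RIPs. With a minimum mean of 50, which left 25 members, 3, 1 and 3 were enriched, 0 and 12 were depleted in YTHDF1 and YTHDF3, and 4 and 15 differed between YTHDF1 and YTHDF2 or YTHDF3. With DESeq2, 6 were enriched and 6 depleted in YTHDF2, and 14 differed between YTHDF2 and YTHDF3. Depleted members in YTHDF1 numbered 5 with library size alone and 4 with TMM over protein-coding genes. With the replicate block in the fit of all libraries, 6 were depleted in YTHDF2 and 22 differed between YTHDF1 and YTHDF3. With the 2 groups alone, 10 and 14 were enriched and 11 and 36 depleted in YTHDF2 and YTHDF3, and set against YTHDF3 9 differed for YTHDF1 and 24 for YTHDF2. With the 2 groups alone and the replicate block, 6 and 20 were enriched in YTHDF2 and YTHDF3, 1, 9 and 45 depleted in YTHDF1, YTHDF2 and YTHDF3, and 5 differed for YTHDF1 and 8 for YTHDF2 when set against YTHDF3. Without members over exons, 2 and 2 were enriched in YTHDF1 and YTHDF3, 1 was depleted in YTHDF1, 4 and 21 differed between YTHDF1 and YTHDF2 or YTHDF3, and shares were 0.0159% in Input, 0.0109% in YTHDF2 and 0.00585% in YTHDF3. The causes were not tested. Same-numbered libraries are taken to share a lysate, so the fits with the replicate block are called paired. Deviations of same-numbered libraries correlated in every replicate for Input and YTHDF3, but not for Input and YTHDF1 or YTHDF2. A median of 18.8 counts per member limits small changes.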
